A study of Drosophila melanogaster and Drosophila simulans with 122 samples.

Results

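Cytokinesis genes were followed through spermatogenesis in *Drosophila melanogaster*. The 7 genes *scra*, *pav*, *tum*, *pbl*, *dia*, *pnut* and *fwd* were taken by symbol from the 17612 genes of the count tables, and each was found once. RNA-seq came from whole testes and from single cysts, the groups of germ cells that derive from 1 stem cell division and develop together. Adult males of 3 lines were used, all derived from the w1118 laboratory strain. In the KO line the 2 copies of the testis microRNA miR-983 (dme-mir-983-1/-2) were deleted with CRISPR-Cas9. In the Replacement line the orthologous *D. simulans* precursor (dsi-mir-983a) stands at that locus. WT carries the *D. melanogaster* copies, and each line is a single line. Cysts were dissected from mated males aged 2 to 3 days and picked singly by their appearance. The stages were spermatogonia (SG, cysts of 16 cells under 10 µm), primary spermatocytes (pSC, 16 cells of 22 to 25 µm), round spermatids (rST, cells of 14 to 16 µm) and elongating spermatids (eST, bundles of 250 to 350 µm). Cysts numbered 4, 5, 6 and 6 in KO at SG, pSC, rST and eST, 5 at each stage in Replacement, and 6, 5, 5 and 5 in WT. Testes were pooled as 20 to 25 pairs from mated males aged 3 to 5 days, with 3 libraries per line. In all 71 libraries were used. Which cysts came from the same fly is not given, so p-values measure the spread between these cysts.

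Cytokinesis splits a cell after its chromosomes have separated. A bundle of microtubules between the chromosomes, the central spindle, carries the centralspindlin complex, and at the cortex around it a contractile ring of actin and myosin forms, held by anillin and septins. In the germline of male flies these divisions stop short, and the rings remain as open ring canals that join the cells of a cyst through the mitotic divisions and both meiotic divisions. Spermatids no longer divide. The genes lie on 3 chromosome arms in the FlyBase release 6 annotation, *dia* on 2L from 20758144 to 20768053, *scra* on 2R from 7590119 to 7595242, *pnut* on 2R from 8237271 to 8240297, *tum* on 2R from 13856150 to 13858689, *fwd* on 3L from 305393 to 319884, *pav* on 3L from 4242734 to 4246233 and *pbl* on 3L from 7896109 to 7911954. The exons of all 7 are free of overlap with other annotated genes.

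Counts per library summed to between 14870386 and 24086166 in cysts and between 15478484 and 21368301 in testes. As a check of the lines, 76 genes that separate the lines in testes were read in the cysts, and 62 of 62 cysts matched their own line best. The stages were checked against marker genes by the summed FPKM, the unit of fragments per kilobase and library size that the authors deposited. The 6 spermatogonial markers (*bam*, *bgcn*, *vas*, *aub*, *nanos*, *stg*) summed to between 80.6 and 600.0 in SG cysts, above every cyst of the later stages, of which the highest was 55.2. The 8 spermatocyte markers had medians of 693 to 806 in pSC cysts of the 3 lines, and the 6 spermatid markers had medians of 5520 to 5820 in eST cysts. Both lists were also detected in SG cysts, with medians of 365 to 479 and 998 to 1980. KO SG replicates 1 and 3 had spermatid sums of 2950 and 3290, against 69.5 to 1710 in the other SG cysts. The joint part of these KO SG cysts in comparisons with SG was not tested. Spermatid sums in pSC cysts were 1570 to 3570 FPKM in KO, 1320 to 3860 in Replacement and 1670 to 2940 in WT. In rST cysts they were 3900 to 4210, 3520 to 4200 and 2630 to 4010, so the stages overlapped in Replacement and WT. Replacement pSC replicate 2 had the sum of 3860, and a spermatocyte sum of 447, against 560 or more in the other pSC cysts. The joint part of pSC cysts high in spermatid markers was not tested. The KO eST cyst replicate 3 and the Replacement eST cyst replicate 3 stood apart with spermatid sums of 2710 and 1900, while the other eST cysts had 3520 or more. Results at eST are therefore also given without these cysts, a choice made after the marker sums were seen. The 5 accessory gland genes summed to between 14.1 and 137 in KO, 22.8 and 64.6 in Replacement and 168 and 717 in WT SG cysts. Their part in the comparisons of SG cysts was not tested.

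The levels of the 7 genes followed 4 different courses. *tum*, *pav* and *scra* had their highest mean in SG cysts of every line and, but for *tum* in WT, were below 5 FPKM in every rST cyst. *pnut* had its lowest mean in rST cysts and a higher one in eST cysts. *pbl* had its highest mean in rST cysts in every line. *fwd* lay between 4.18 and 24.7 FPKM in every SG, pSC and rST cyst, and *dia* had the lowest mean of the 7 genes in WT at SG and pSC. FPKM is per length, so levels can be set side by side between genes, with a limit for *pbl*, *dia*, *fwd* and *scra* given below. In WT SG cysts *tum* led with 60.4 ± 21.9 FPKM (SD, n = 6), higher than *pnut* in 6 of 6 cysts, and *dia* was last with 3.23 ± 1.3 FPKM, although its range overlapped that of *pbl*. In WT rST cysts *pbl*, *tum* and *fwd* averaged 25.0, 13.6 and 13.2 FPKM with overlapping ranges, and the range of *fwd* lay above those of the other 4 genes, which averaged 0.628 to 1.47 FPKM.

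**Figure D1:**
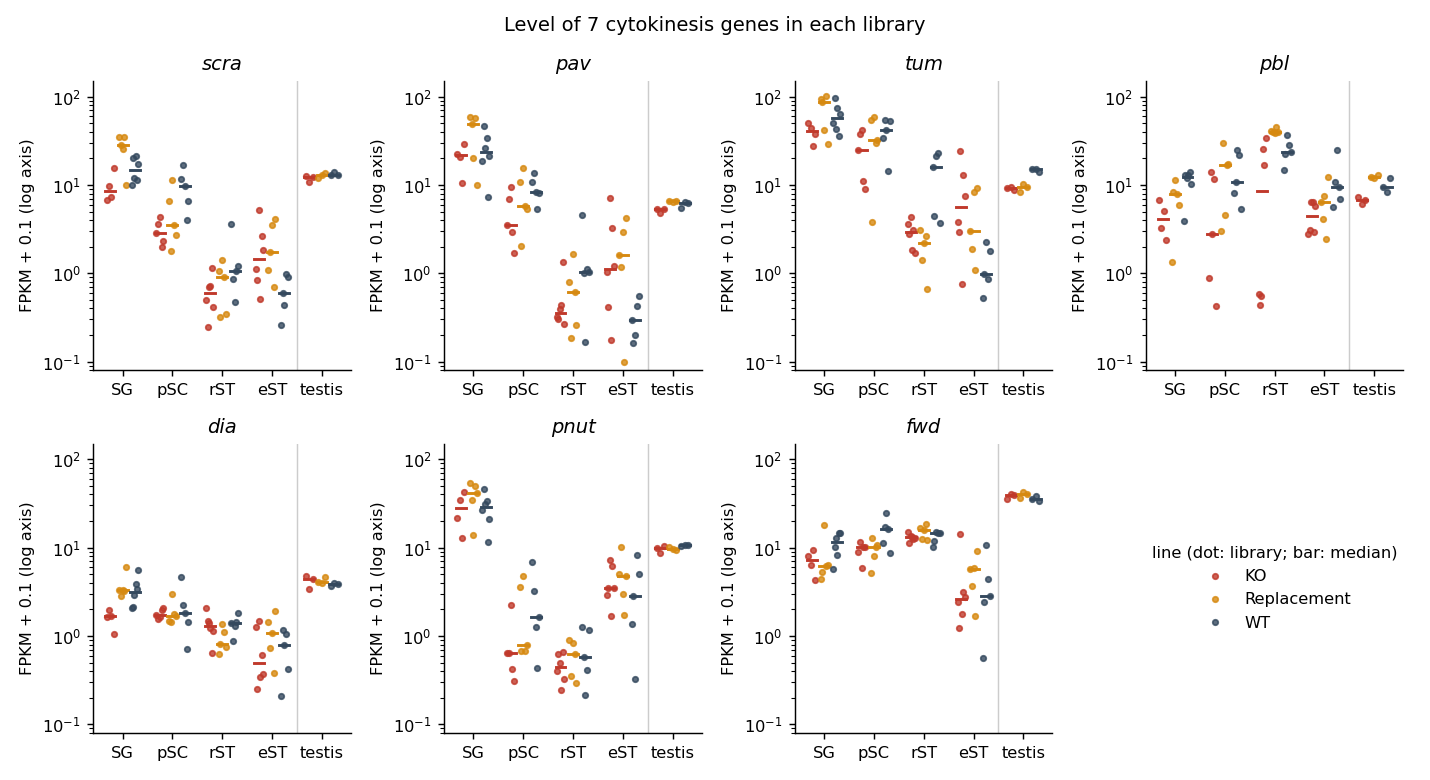
Level of each gene in each library as FPKM plus 0.1 on a log axis, by stage and line, with a dot for each library and a bar for the median. In rST cysts *pbl* splits into 3 KO cysts under 0.5 FPKM and 3 KO cysts between 16.6 and 33.5 FPKM, and *fwd* in testes lies above every cyst.

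Changes between successive stages were tested per line with edgeR's quasi-likelihood test on counts, and a gene was called at an adjusted p (FDR) under 0.05 and a change above 2-fold. For pSC over SG, 3 of 7 genes were called in KO, 3 in Replacement and 1 in WT, all lower in pSC, where 45.1%, 39.7% and 20.7% of all genes tested were called. For rST over pSC, 3 genes were called in KO and 5 in Replacement, against 2 in WT. Of all genes, 13.8%, 19.2% and 18.9% were called. Among these calls 2.35% were higher in KO, 3.25% in Replacement and 32.5% in WT, and the rest were lower. For eST over rST, 6 genes were called in KO and 4 in Replacement, against 2 in WT, with 19.1%, 15.0% and 22.5% of all genes called. *pnut* was called at the first and the last step in all 3 lines, and *scra* and *pav* at the second step in all 3 lines. The median log2 fold change of the 7 genes was -0.68, -1.47 and -0.96 for rST over pSC in KO, Replacement and WT, beside -0.23, -0.20 and -0.17 over all genes. DESeq2's size factors shifted the median of all genes to -0.01, 0.12 and -0.07 for these 3 comparisons. They also shifted the share of calls that were higher. For pSC over SG it was 57.6% against 44.4% in Replacement and 34.0% against 22.4% in WT. For rST over pSC it was 6.61% against 2.35% in KO, 10.9% against 3.25% in Replacement and 42.7% against 32.5% in WT. For eST over rST it was 52.9% against 71.1% in Replacement. No called member changed its sign.

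**Figure D2:**
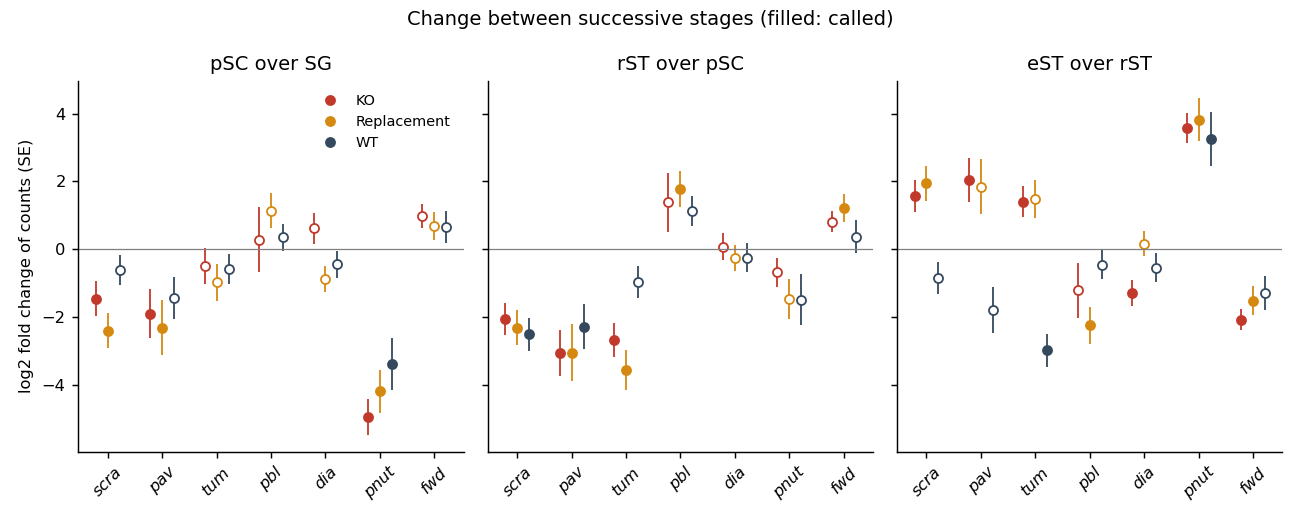
Log2 fold change of counts of each gene between successive stages, with its SE, in KO, Replacement and WT. Filled points were called. At the last step *scra*, *pav* and *tum* lie above 0 in KO and Replacement and below 0 in WT.

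*tum* and *pav* encode the 2 subunits of centralspindlin, a GTPase-activating protein and a kinesin. *tum* was the most abundant of the 7 genes in SG cysts of every line. It had 49.5, 44.5, 27.3 and 37.6 FPKM in KO SG cysts, 92.7, 86.7, 42.3, 102.0 and 28.6 FPKM in Replacement SG cysts, and 36.1 at the lowest, 56.8 at the median and 95.7 at the highest in WT SG cysts. The 3 lines overlapped, and in pSC cysts they did so too, at 8.85 to 42.0 FPKM in KO, 3.73 to 58.2 in Replacement and 14.1 to 53.8 in WT.

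At rST the lines parted. *tum* had 1.6, 2.83 and 4.22 FPKM at the lowest, the median and the highest of 6 KO cysts. It had 3.02, 1.3, 2.12, 2.57 and 0.561 FPKM in the 5 Replacement cysts. In WT it had 15.7, 4.39, 21.4, 22.9 and 3.61 FPKM. All 5 Replacement cysts were below all 5 WT cysts, whereas KO overlapped WT through WT replicates 2 and 5. The log2 fold change of counts was -2.12 ± 0.49 (SE) for KO over WT (edgeR, adjusted p = 0.0116) and -2.65 ± 0.53 for Replacement over WT (edgeR, adjusted p = 0.00279). Replacement over KO gave -0.53 ± 0.49 (edgeR, adjusted p = 0.662). *tum* was the only 1 of the 7 genes called at rST, in both comparisons with WT. Of all genes, 5.72% were called for KO over WT, 11.2% for Replacement over WT and 4.39% for Replacement over KO, where no member was called, 1 (*dia*) had an unadjusted p under 0.05 (edgeR) and DESeq2 called 0. Leaving out any 1 of the 16 cysts left both calls of *tum* in place. The 3 WT cysts high in *tum* had summed spermatocyte markers of 602, 307 and 486 FPKM, and the other two had 356 and 456. These sums overlapped between the lines, at 265 to 484 FPKM in KO, 257 to 553 FPKM in Replacement and 307 to 602 FPKM in WT rST cysts. Within that list the single gene *aly* had 4.68 to 8.33 FPKM in KO, 8.46 to 14.6 FPKM in Replacement and 10.9 to 33.3 FPKM in WT. The other genes of the list are not given one by one, and *aly*, 1 of 8 genes, does not stand for the list, whose sums overlapped. The 4 cyst cell markers summed to 5.31 to 11.8 FPKM in KO, 6.88 to 11 FPKM in Replacement and 13.5 to 19.1 FPKM in WT, without overlap with WT. Among them *so* had 2.25 to 8.88 FPKM in KO, 3.73 to 6.81 FPKM in Replacement and 10.9 to 14.6 FPKM in WT, and the defining marker *tj* was at 0.0994 FPKM or less in every rST cyst. The part of these markers in the result was not tested.

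In WT *tum* averaged 39.3 ± 16.2, 13.6 ± 9.18 and 1.18 ± 0.715 FPKM in pSC, rST and eST cysts. Its log2 fold change was -2.97 ± 0.49 for eST over rST (edgeR, adjusted p = 0.000397). For rST over pSC it was -0.96 ± 0.46, which edgeR did not call (adjusted p = 0.127), whereas limma called it at -1.65 on log2(FPKM + 1) (adjusted p = 0.00745). In KO and Replacement rST over pSC gave -2.67 ± 0.49 in KO (edgeR, adjusted p = 0.00136) and -3.55 ± 0.60 in Replacement (edgeR, adjusted p = 0.000766). It then rose for eST over rST in KO by 1.40 ± 0.46 on the log2 scale (edgeR, adjusted p = 0.0322), and the value was 1.47 ± 0.56 in Replacement (edgeR, adjusted p = 0.0735). The rise in KO was lost without KO eST replicate 3 or 5 or KO rST replicate 2, 4 or 6 (adjusted p 0.0571 to 0.102), and the Replacement value passed without pSC replicate 2 (adjusted p = 0.0401). These differences in course were tested as such by the interaction of line and stage over all 62 cysts. *tum* passed it (edgeR, F test, adjusted p = 0.000491) and so did *scra* (edgeR, adjusted p = 0.0241), 2 of 7 genes, where 3.25% of all genes passed. *pav* (edgeR, adjusted p = 0.143), *dia* (0.246), *fwd* (0.701), *pbl* (0.769) and *pnut* (0.820) did not pass. The test of *scra* rested on the WT eST cysts: without WT eST replicate 1, 2 or 3 its adjusted p was 0.0520 to 0.0590.

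**Figure D3:**
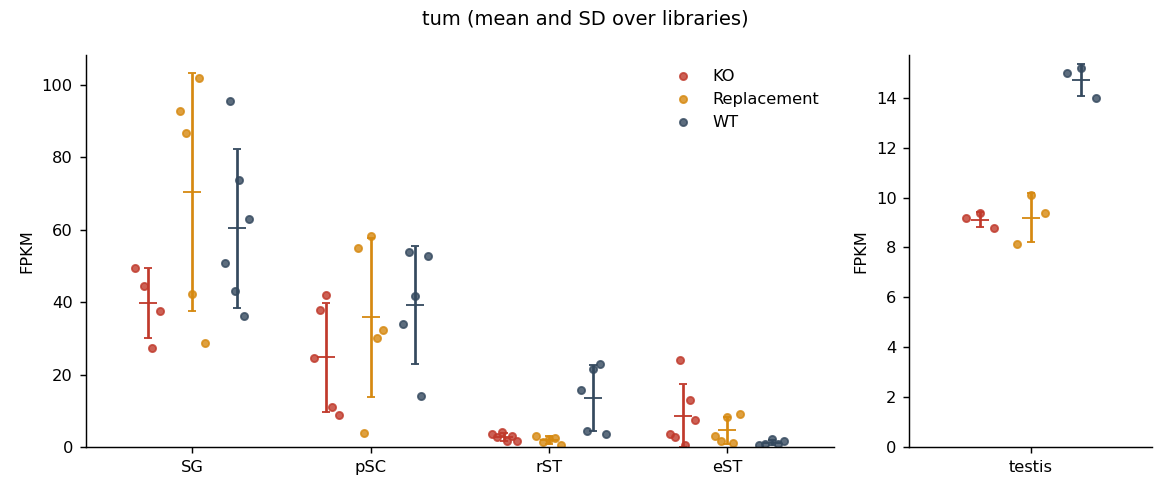
FPKM of *tum* in each library, with the mean and SD over libraries, in KO, Replacement and WT. In testes, at right, the 3 KO libraries lie between 8.78 and 9.38 FPKM and the 3 Replacement libraries between 8.13 and 10.1 FPKM, below the WT libraries at 14.0 to 15.2 FPKM.

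In testes *tum* had 9.19, 9.38 and 8.78 FPKM in KO, 8.13, 10.1 and 9.38 FPKM in Replacement and 15, 15.2 and 14.0 FPKM in WT. Neither KO nor Replacement overlapped WT. The log2 fold change was -0.67 ± 0.087 for KO over WT (edgeR, adjusted p = 0.000109) and -0.58 ± 0.086 for Replacement over WT (edgeR, adjusted p = 0.000169), and 0.08 ± 0.088 for Replacement over KO (edgeR, adjusted p = 0.539). These changes are under 2-fold, so *tum* was not called in testes. Fewer cells of a stage and less RNA per cell cannot be told apart in these bulk libraries.

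At eST *tum* lay the other way. It had 0.658, 5.48 and 24 FPKM at the lowest, the median and the highest of 6 KO cysts. It had 2.89, 1.76, 8.21, 0.989 and 9.08 FPKM in Replacement and 0.420, 0.891, 2.16, 0.761 and 1.69 FPKM in WT. The high values came from KO replicates 3 and 5, at 24 and 13 FPKM, and from Replacement replicates 3 and 5, at 8.21 and 9.08 FPKM, and both lines overlapped WT. The log2 fold change was 2.2 ± 0.60 for KO over WT (edgeR, adjusted p = 0.0483) and 1.68 ± 0.60 for Replacement over WT (edgeR, adjusted p = 0.107). The call for KO over WT was lost without KO replicate 1, 3, 5 or 6, Replacement replicate 1, 3 or 5, or WT replicate 1, 2, 4 or 5, with adjusted p between 0.0530 and 0.113. Without the 2 cysts low in spermatid markers it was 1.87 (edgeR, adjusted p = 0.123). Summed spermatocyte markers were 646 and 411 FPKM in KO replicates 3 and 5 and 274 and 423 FPKM in Replacement replicates 3 and 5, against 134 to 328 FPKM in WT, and their part in the result was not tested.

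*pav* went with *tum* through the first stages. It averaged 25.4 ± 13.3, 9.20 ± 3.21, 1.47 ± 1.70 and 0.228 ± 0.163 FPKM in WT SG, pSC, rST and eST cysts (SD, n = 6, 5, 5 and 5). For rST over pSC it fell in every line, by 3.06 ± 0.68 in KO (edgeR, adjusted p = 0.00488), 3.05 ± 0.84 in Replacement (edgeR, adjusted p = 0.0123) and 2.28 ± 0.66 in WT (edgeR, adjusted p = 0.0183) on the log2 scale. The call in Replacement ended without Replacement pSC replicate 1 or 3 (adjusted p 0.0558 and 0.0660), and the call in WT without WT rST replicate 2 (adjusted p = 0.0503). For pSC over SG *pav* fell by 1.89 ± 0.72 in KO (edgeR, adjusted p = 0.0342) and by 2.31 ± 0.81 in Replacement (edgeR, adjusted p = 0.0284). These falls were lost without KO SG replicate 1, 2 or 4 or KO pSC replicate 1, 4 or 5 (adjusted p 0.0563 to 0.0797), and without Replacement SG replicate 5 or Replacement pSC replicate 2, 4 or 5 (adjusted p 0.0616 to 0.0665). At the last step it rose in KO by 2.04 ± 0.65 (edgeR, adjusted p = 0.0269), which was lost without KO eST replicate 3 or 5 or KO rST replicate 1, 2, 3, 4 or 6 (adjusted p 0.0513 to 0.0971).

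In eST cysts *pav* had 0.0759, 1.03 and 7.06 FPKM at the lowest, the median and the highest of 6 KO cysts. It had 1.51, 1.08, 2.80, 0 and 4.08 FPKM in Replacement, against 0.194, 0.0636, 0.0992, 0.327 and 0.456 FPKM in WT. In all 5 WT cysts it was below 0.5 FPKM, and 4 of 6 KO cysts and 4 of 5 Replacement cysts were above 0.9 FPKM. The log2 fold change was 2.38 ± 0.92 for KO over WT (edgeR, adjusted p = 0.165) and 2.69 ± 0.95 for Replacement over WT (edgeR, adjusted p = 0.101), and neither was called. Without Replacement eST replicate 4, in which no *pav* read was counted, the adjusted p for Replacement over WT was 0.0460. In testes *pav* had 5.28, 4.70 and 5.19 FPKM in KO, 6.50, 6.34 and 6.50 FPKM in Replacement and 5.33, 6.24 and 6.11 FPKM in WT. The KO libraries were below all others, at the closest with 5.28 FPKM against 5.33 FPKM in WT. For KO over WT the log2 fold change was -0.18 ± 0.079 (edgeR, adjusted p = 0.145), which did not pass. Replacement over KO gave a log2 fold change of 0.43 ± 0.078 for Replacement over KO (edgeR, adjusted p = 0.00131), under 2-fold.

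*scra* encodes anillin, the scaffold of the contractile ring, which binds actin, myosin and septins. It had 6.67, 9.72, 7.14 and 15.5 FPKM in KO SG cysts and 34.7, 28.1, 25.7, 35.2 and 9.95 FPKM in Replacement SG cysts. In WT SG cysts it had 9.84, 14.6 and 21.3 FPKM at the lowest, the median and the highest. In Replacement 4 of 5 cysts were above every KO and WT cyst. No member was called at SG, where 0.144% of all genes were called for KO over WT, 0.356% for Replacement over KO and 1.87% for Replacement over WT. At an unadjusted p under 0.05 (edgeR) 1, 2 and 1 members passed, and DESeq2 called 2 for Replacement over KO, *scra* and *dia*, and 0 for the others. *scra* had a log2 fold change of 1.44 ± 0.40 for Replacement over KO (edgeR, adjusted p = 0.187) and 0.93 ± 0.35 for Replacement over WT (edgeR, adjusted p = 0.182).

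In pSC cysts *scra* had 2.73, 3.49, 4.25, 1.87 and 2.24 FPKM in KO, 6.54, 1.67, 11.2, 3.46 and 2.62 FPKM in Replacement and 11.7, 16.7, 9.59, 3.87 and 6.52 FPKM in WT. KO overlapped WT through WT replicate 4 alone. WT replicate 1 had a muscle marker sum of 255 FPKM, against 4.55 to 18.0 FPKM in the other pSC cysts, and without it KO over WT gave -1.39 (edgeR, adjusted p = 0.160). For KO over WT the log2 fold change was -1.46 ± 0.40 (edgeR, adjusted p = 0.0684), so no member was called at pSC. Of all genes, 1.79% were called for KO over WT at that stage, 1.7% for Replacement over KO and 3.92% for Replacement over WT. At an unadjusted p under 0.05 (edgeR) 2, 0 and 0 members passed, and DESeq2 called 1, 0 and 0. Without Replacement pSC replicate 2 or 3, or WT pSC replicate 4, *scra* passed for KO over WT, with adjusted p between 0.0343 and 0.0491. For pSC over SG *scra* fell by 1.45 ± 0.51 in KO (edgeR, adjusted p = 0.0247) and by 2.39 ± 0.52 in Replacement (edgeR, adjusted p = 0.00156) on the log2 scale, and its value in WT was -0.62 ± 0.44 (edgeR, adjusted p = 0.289). The call in KO ended without KO SG replicate 4 or KO pSC replicate 4 (adjusted p 0.0521 to 0.0878). Its log2 fold change for rST over pSC was -2.05 ± 0.47 in KO, -2.31 ± 0.52 in Replacement and -2.50 ± 0.48 in WT (edgeR, adjusted p = 0.00622, 0.00331 and 0.00337), and these calls held without any 1 cyst.

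At eST *scra* had 0.417, 1.37 and 5.09 FPKM at the lowest, the median and the highest of 6 KO cysts. It had 0.981, 1.65, 3.43, 0.6 and 3.99 FPKM in Replacement and 0.161, 0.499, 0.337, 0.870 and 0.810 FPKM in WT. At the last step *scra* rose by 1.57 ± 0.46 in KO (edgeR, adjusted p = 0.0175), which was lost without KO eST replicate 3 (adjusted p = 0.0541), and by 1.94 ± 0.51 in Replacement (edgeR, adjusted p = 0.0157), where limma on log2(FPKM + 1) gave 0.78 and did not call it (adjusted p = 0.291). As for *tum*, replicates 3 and 5 of KO and of Replacement were the highest of their line. *scra* was the 1 gene called for Replacement over WT, with a log2 fold change of 2.08 ± 0.54 (edgeR, adjusted p = 0.0290), where 5.12% of all genes were called, and its value for KO over WT was 1.47 ± 0.52 (edgeR, adjusted p = 0.122), which passed without KO replicate 4 (adjusted p = 0.0304). The call ended when Replacement replicate 2, 3 or 5 or WT replicate 1, 2, 3 or 5 was left out (adjusted p between 0.0593 and 0.0893), and without the 2 cysts low in spermatid markers the value was 1.81 (edgeR, adjusted p = 0.0666). For KO over WT, *tum* and *pbl* were called at eST, where 3.24% of all genes were called. For Replacement over KO no member was called, against 1.61% of all genes, 0 had an unadjusted p under 0.05 (edgeR) and DESeq2 called 0.

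**Figure D4:**
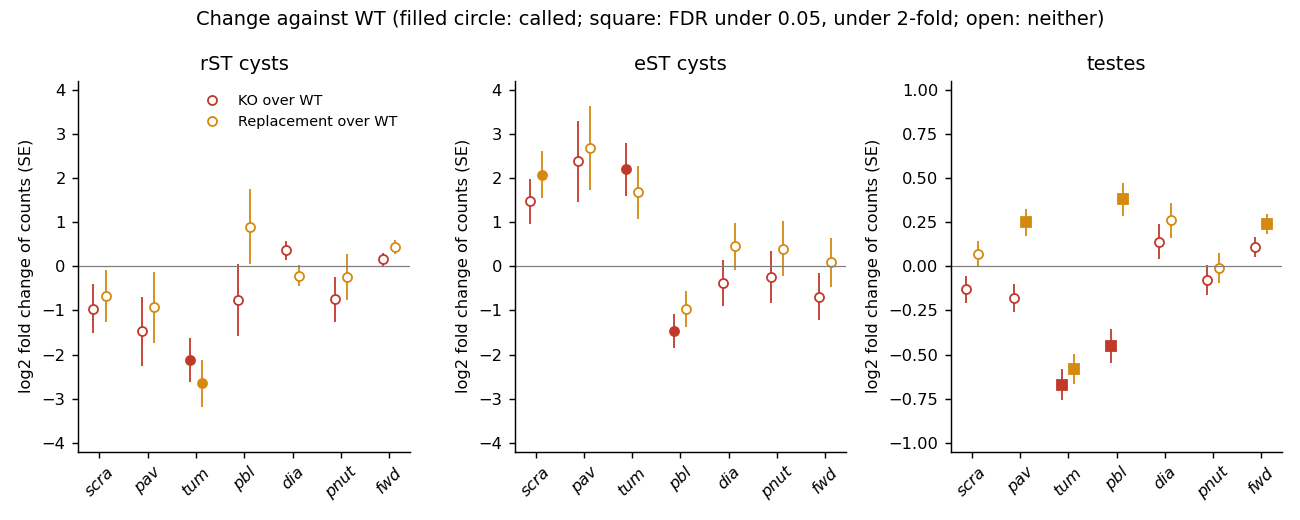
Log2 fold change of counts of each gene against WT, with its SE, for KO and Replacement in rST cysts, eST cysts and testes. *tum* lies below 0 at rST and above 0 at eST in both lines; the axis for testes is narrower.

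*pbl* encodes a guanine nucleotide exchange factor that the contractile ring needs. It averaged 10.9 ± 3.67, 14.1 ± 8.73, 25.0 ± 8.00 and 11.5 ± 7.68 FPKM in WT SG, pSC, rST and eST cysts. In Replacement the same stages averaged 6.89 ± 3.75, 14.1 ± 10.8, 40.9 ± 2.67 and 6.49 ± 3.82 FPKM. *pbl* rose for rST over pSC in Replacement, with a log2 fold change of 1.78 ± 0.53 (edgeR, adjusted p = 0.0187), and fell for eST over rST by 2.24 ± 0.54 (edgeR, adjusted p = 0.00928). The first call ended without Replacement pSC replicate 3 (adjusted p = 0.0536). In WT the value for rST over pSC was 1.12 ± 0.44 (edgeR, adjusted p = 0.0640).

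In KO rST cysts *pbl* fell into 2 sets. Replicates 1, 2 and 3 had 0.477, 0.339 and 0.459 FPKM, from 54, 41 and 63 reads. Replicates 4, 5 and 6 had 25.6, 16.6 and 33.5 FPKM, from 1893, 1149 and 2046 reads. The 5 Replacement cysts had 38.8 to 45.5 FPKM and the 5 WT cysts had 14.6 to 36.3 FPKM, so the 3 low KO cysts lay far below every other rST cyst, and all Replacement cysts lay above all WT cysts. Over all 6 KO cysts the log2 fold change was -0.76 ± 0.81 for KO over WT (edgeR, adjusted p = 0.543) and 1.66 ± 0.81 for Replacement over KO (edgeR, adjusted p = 0.279), and neither was called. Replacement over WT gave 0.9 ± 0.85 (edgeR, adjusted p = 0.453) and was not called either. On the log2(FPKM + 1) scale limma gave a difference of 2.80 for Replacement over KO (limma, adjusted p = 0.0389). The KO pSC cysts varied in the same way, with 0.787, 14.0, 2.66, 11.5 and 0.330 FPKM from 92, 852, 275, 888 and 42 reads. *fwd* had 15.1, 11.2 and 13.4 FPKM in the 3 low KO rST cysts and 13.1, 12.3 and 12.9 FPKM in the 3 high ones. The summed spermatid markers were 4200, 3900 and 4210 FPKM in the low cysts and 3940, 3910 and 4080 FPKM in the high ones.

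The reads of *pbl* also differed in the length they imply. The length that relates a gene's count to its FPKM in the same library was computed and scaled by the same ratio over genes with 100 or more reads in every library. For *pbl* it was 3408 to 3425 bp in the 3 high KO rST cysts, 3334 to 3400 bp in the Replacement and 3410 to 3467 bp in the WT rST cysts. It was 5749, 6206 and 6509 bp in the 3 low KO rST cysts, and 5973 and 6827 bp in KO pSC replicates 1 and 5, the other cysts with under 100 reads. In SG cysts it was 5007 to 5812 bp in KO, 3727 to 5637 bp in Replacement and 3758 to 5197 bp in WT. The scale is relative: *tum*, with 1 annotated transcript of 2353 bp, gave 2964 to 3188 bp in cysts. *dia* gave 16124 bp in WT pSC replicate 4, 16418 bp in KO rST replicate 5 and 11759 bp in Replacement rST replicate 1. Its FPKM there, 0.606, 0.544 and 0.519 from 216, 180 and 108 reads, was low for the counts. Other libraries with 40 or more *dia* reads gave 5189 to 7119 bp. In eST cysts *fwd* gave 5928 to 10617 bp. *scra* gave 3952 to 4186 bp in 3 WT eST cysts of 45 to 71 reads, against 4626 to 5494 bp in KO and Replacement eST cysts. The cause was not tested. *pbl* has 6 annotated transcripts, from 2598 to 5047 bp. These lengths describe the 2 deposited values, were looked at after the levels were seen, and are no measured transcript.

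**Figure D5:**
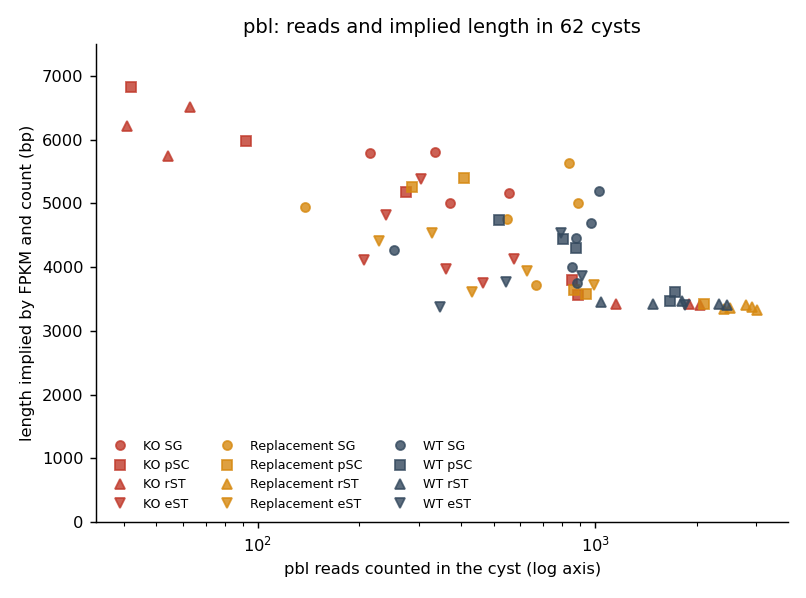
Reads of *pbl* counted in each of 62 cysts on a log axis, against the length in bp implied by FPKM and count, by line and stage. The rST cysts of all lines lie near 3400 bp at over 1000 reads, except 3 KO rST cysts under 100 reads at 5749 to 6509 bp.

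In eST cysts *pbl* had 2.71, 4.35 and 6.37 FPKM at the lowest, the median and the highest of 6 KO cysts. It had 6.37, 3.97, 7.44, 2.35 and 12.3 FPKM in Replacement and 5.57, 10.8, 24.7, 9.39 and 6.88 FPKM in WT. The log2 fold change for KO over WT was -1.47 ± 0.38 (edgeR, adjusted p = 0.0387), and it was called. That call ended without KO replicate 1, 2, 3, 5 or 6, Replacement replicate 1 or 3, or WT replicate 2, 3 or 4 (adjusted p 0.0503 to 0.0929). Without the 2 cysts low in spermatid markers the value was -1.38 (edgeR, adjusted p = 0.114). In testes *pbl* had 7.24, 5.98 and 6.60 FPKM in KO, 12.3, 11.8 and 13 FPKM in Replacement and 9.45, 8.12 and 12.0 FPKM in WT. All KO libraries were below all others. KO replicate 2, the lowest for *pbl* and *pav*, had an accessory gland marker sum of 288 FPKM, against 6.25 to 11.4 FPKM in the other testis libraries, and without it *pbl* gave -0.36 for KO over WT (edgeR, adjusted p = 0.0115) and 0.75 for Replacement over KO (edgeR, adjusted p = 1.74e-05). Log2 fold changes were -0.45 ± 0.097 for KO over WT (edgeR, adjusted p = 0.00567), 0.83 ± 0.096 for Replacement over KO (edgeR, adjusted p = 2.7e-05) and 0.38 ± 0.094 for Replacement over WT (edgeR, adjusted p = 0.00732), each under 2-fold.

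No member passed both thresholds in testes, where 5.15% of all genes did for KO over WT, 6.18% for Replacement over KO and 7.67% for Replacement over WT. At an FDR under 0.05 whatever the fold, 2 of 7 passed for KO over WT (*tum* and *pbl*), 2 for Replacement over KO (*pbl* and *pav*) and 4 for Replacement over WT (*tum*, *pbl*, *fwd* and *pav*), beside 17.0%, 22.0% and 29.3% of all genes.

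*pnut* encodes a septin, a filament protein of the ring and of ring canals. It had 21.6, 34.9, 12.7 and 42.4 FPKM in KO SG cysts, 54.2, 34.3, 13.7, 49.6 and 41.4 FPKM in Replacement SG cysts and 11.5, 28.7 and 45.9 FPKM at the lowest, the median and the highest of 6 WT SG cysts. In pSC cysts it had 0.538, 0.541, 2.16, 0.327 and 0.211 FPKM in KO, 3.52, 0.569, 4.66, 0.569 and 0.686 FPKM in Replacement and 6.78, 3.14, 1.16, 0.335 and 1.52 FPKM in WT. No pSC cyst reached any SG cyst of its line. For pSC over SG the log2 fold change was -4.94 ± 0.52 in KO (edgeR, adjusted p = 7.09e-07), -4.18 ± 0.64 in Replacement (edgeR, adjusted p = 7.56e-05) and -3.37 ± 0.77 in WT (edgeR, adjusted p = 0.00252). These calls held under every alternative run.

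In rST cysts *pnut* stayed at 0.146 to 0.562 FPKM in KO, 0.192 to 0.803 FPKM in Replacement and 0.116 to 1.15 FPKM in WT. In eST cysts it had 1.59, 3.39 and 7.11 FPKM at the lowest, the median and the highest of 6 KO cysts, 4.96, 10.0, 2.87, 1.63 and 4.66 FPKM in Replacement and 1.28, 2.73, 0.223, 8.15 and 4.96 FPKM in WT. All KO and Replacement eST cysts were above the rST cysts of their line, and WT overlapped through WT eST replicate 3. For eST over rST the log2 fold change was 3.58 ± 0.44 in KO (edgeR, adjusted p = 6.87e-05), 3.82 ± 0.64 in Replacement (edgeR, adjusted p = 0.00116) and 3.24 ± 0.79 in WT (edgeR, adjusted p = 0.00472). On log2(FPKM + 1), a scale that shrinks low values, limma gave 1.80 in KO, 1.81 in Replacement and 1.17 in WT, and the WT step did not pass there (limma, adjusted p = 0.0654). No difference between lines was called for *pnut*, and for KO over WT at pSC the log2 fold change was -1.61 ± 0.75 (edgeR, adjusted p = 0.275), and -0.92 without WT replicate 1, the cyst high in muscle markers (edgeR, adjusted p = 0.653).

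*dia* encodes a formin, which assembles the unbranched actin filaments of the ring. It had 1.55, 1.86, 1.6 and 0.940 FPKM in KO SG cysts, 3.22, 2.70, 3.20, 3.11 and 5.99 FPKM in Replacement SG cysts and 2.00, 3.06 and 5.48 FPKM at the lowest, the median and the highest of 6 WT SG cysts. All KO cysts were below all Replacement and WT cysts. Its log2 fold change was 1.24 ± 0.38 for Replacement over KO (edgeR, adjusted p = 0.244) and -0.96 ± 0.37 for KO over WT (edgeR, adjusted p = 0.419), and neither passed with edgeR over all genes, in a stage where the biological coefficient of variation was 71.3%, against 9.08% in testes. *dia* averaged 0.618 ± 0.518, 1.01 ± 0.608 and 0.624 ± 0.403 FPKM in KO, Replacement and WT eST cysts. Of its stage steps 1 was called, eST over rST in KO, at -1.28 ± 0.39 (edgeR, adjusted p = 0.0227), and it was lost without KO rST replicate 1 (adjusted p = 0.0580).

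*fwd* encodes a phosphatidylinositol kinase of the Golgi that spermatocytes need for cytokinesis. It averaged 9.23 ± 2.18 FPKM in KO, 9.21 ± 2.85 FPKM in Replacement and 15.5 ± 6.23 FPKM in WT pSC cysts, and 13 ± 1.3, 15 ± 2.63 and 13.2 ± 2.09 FPKM in rST cysts of the same lines. In the 16 rST cysts it spanned only 10.1 to 18.2 FPKM. For rST over pSC it was called in Replacement, at 1.22 ± 0.42 (edgeR, adjusted p = 0.0413). That call ended without any 1 of 9 cysts, Replacement eST replicate 1, pSC replicates 1, 3 and 4 and all 5 rST replicates (adjusted p 0.0505 to 0.0890). It also ended without the minimum count for testing and with limma on log2(FPKM + 1) or log2(FPKM + 0.1). For eST over rST *fwd* fell by 2.07 ± 0.31 in KO (edgeR, adjusted p = 0.000286) and by 1.51 ± 0.42 in Replacement (edgeR, adjusted p = 0.0197) on the log2 scale. The value in WT was -1.29 ± 0.50 (edgeR, adjusted p = 0.0587), and the call in Replacement ended without Replacement eST replicate 2 (adjusted p = 0.0564).

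*fwd* had a higher FPKM in every testis library than in any cyst. It had 35.6, 40 and 39.6 FPKM in KO, 36.6, 42.2 and 40.8 FPKM in Replacement and 35.3, 38.2 and 33.7 FPKM in WT testes, above all 62 cysts, of which the highest had 24.7 FPKM. The other 6 genes had at least 2 cysts above the testis range. Cyst and testis libraries were made by different protocols, so this is a description without a test. For Replacement over WT in testes the log2 fold change of *fwd* was 0.24 ± 0.057 (edgeR, adjusted p = 0.00543), under 2-fold.

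A list of 36 other cytokinesis genes was read in the same fits, 12 of the contractile ring and cortex, 9 of the central spindle, 13 of membrane traffic and 2 of abscission. For pSC over SG, 1 rose and 10 fell in KO, 0 rose and 13 fell in Replacement, and 0 rose and 7 fell in WT, no larger a share than the 45.1%, 39.7% and 20.7% of all genes called. Of the ring and cortex genes 7 fell in KO, 7 in Replacement and 6 in WT, while of the 9 central spindle genes 0, 1 and 0 fell. Septin2 and Septin5, like *pnut* septins, were among the 4 partners with the largest changes in every line. Septin2 averaged 4.35 ± 2.48 FPKM in KO pSC cysts, against 80.4 ± 33.5 FPKM in KO SG cysts, a log2 fold change of -3.99 ± 0.39 (edgeR, adjusted p = 5.37e-07). In WT its value was -2.57 ± 0.49 (edgeR, adjusted p = 0.000497), and in Replacement -2.86 ± 0.40 (edgeR, adjusted p = 3.1e-05). Septin5 gave -3.06 ± 0.45 in KO, -3.04 ± 0.64 in Replacement and -2.35 ± 0.47 in WT (edgeR, adjusted p = 2.13e-05, 0.00135 and 0.000821).

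For rST over pSC 4 of 9 central spindle genes fell in KO, 4 in Replacement and 5 in WT, and the others were not called, beside 13.8%, 19.2% and 18.9% of all genes called. *aust*, *aurB* and *feo*, that is Australin, the Aurora B kinase and the microtubule bundler Fascetto, fell in all 3 lines. *aust*, the male meiotic partner of Aurora B, averaged 1.76 ± 1.40 FPKM in KO rST cysts, against 70.6 ± 40.4 FPKM in KO pSC cysts, a log2 fold change of -4.86 ± 0.73 (edgeR, adjusted p = 0.000488). In Replacement its value was -4.40 ± 0.71 (edgeR, adjusted p = 0.000661), and in WT -2.19 ± 0.70 (edgeR, adjusted p = 0.0287). Over all 36 genes 0 rose and 6 fell in KO, 0 and 9 in Replacement and 0 and 10 in WT. Falls also made up most of the calls over all genes, of which 2.35%, 3.25% and 32.5% were higher.

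For eST over rST, 8 of the 36 rose and 1 fell in KO, 10 rose and 0 fell in Replacement, and 4 rose and 5 fell in WT, beside 19.1%, 15.0% and 22.5% of all genes called in either direction. *aust* rose in KO by 3.52 ± 0.68 (edgeR, adjusted p = 0.00128) and in Replacement by 2.46 ± 0.66 (edgeR, adjusted p = 0.0164) and fell in WT, at -2.06 ± 0.72 on the log2 scale (edgeR, adjusted p = 0.0365). Between lines at eST, *aust* was higher for KO over WT, at 3.27 ± 0.74 (edgeR, adjusted p = 0.0198), and for Replacement over WT, at 3.15 ± 0.75 (edgeR, adjusted p = 0.0180). It averaged 23.9 ± 25.0 FPKM in KO, 13.5 ± 10.3 FPKM in Replacement and 1.42 ± 1.39 FPKM in WT eST cysts. *feo* was higher for Replacement over WT, at 2.40 ± 0.56 (edgeR, adjusted p = 0.0153). At eST 1 of 36 partners was called for KO over WT and 2 for Replacement over WT, beside 3.24% and 5.12% of all genes. Without the 2 cysts low in spermatid markers 0 of 36 were called for KO over WT, while *aust* and *feo* were called for Replacement over WT, and for eST over rST 7 rose and 2 fell in KO and 9 rose in Replacement. The interaction of line and stage was passed by *feo* (edgeR, adjusted p = 0.00332), *aust* (0.0111) and *Klp3A* (0.0291), and by *tum* and *scra* among the 7. The 3 partners, of 36, are among the 9 central spindle genes, and 3.25% of all genes passed. At rST *Cog7*, a Golgi tethering subunit, was the 1 partner called, lower at -2.05 ± 0.54 for KO over WT (edgeR, adjusted p = 0.0268) and at -2.39 ± 0.59 for Replacement over WT (edgeR, adjusted p = 0.00991), and it averaged 1.78 ± 0.267, 1.37 ± 0.502 and 8.59 ± 11.5 FPKM in KO, Replacement and WT, where the SD exceeded the mean. Of all genes at rST, 5.72% were called for KO over WT and 11.2% for Replacement over WT. At pSC only *asp* was called, for Replacement over WT, beside 3.92% of all genes. At SG and in testes no partner was called. Comparisons with the same WT cysts share those cysts and are not independent.

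Further values that were not called passed edgeR's test when 1 cyst was left out, and several of them also passed with DESeq2, limma or another setting. They were *fwd* for pSC over SG in KO without KO SG replicate 1 or 3 or KO pSC replicate 1 or 3, and in Replacement without SG replicate 4. *pbl* passed for pSC over SG in Replacement without pSC replicate 1 or 3, and for rST over pSC in WT without pSC replicate 3 or 4 or rST replicate 1. *pnut* passed for rST over pSC in Replacement without pSC replicate 2. *pav* passed for eST over rST in Replacement without eST replicate 4, for pSC over SG in WT without rST replicate 3, and for eST over rST in WT without SG replicate 1, 2, 6 or 7, eST replicate 4 or 5 or rST replicate 3. *fwd* passed for that last step in WT without SG replicate 1, 2 or 7, eST replicate 3 or rST replicate 1.

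Over the 62 cysts the levels of *scra*, *pav* and *tum* went together. On log2(FPKM + 1), Pearson's r was 0.97 between *scra* and *pav*, 0.92 between *pav* and *tum* and 0.89 between *scra* and *tum*, whereas *pbl* had r of -0.28 to -0.09 with all others but *fwd*, with which it had 0.47. Among 7688 genes of at least 5 FPKM on average, *scra* was most like *XNP* (r = 0.973) and *pav* (0.972), and *pav* was most like *ncm* (0.976) and *GlyRS* (0.974). *tum* was most like *kuk* (0.963) and *mbo* (0.956), *pnut* like *Shmt* (0.976) and *SdhB* (0.972), and *fwd* like *Apl* (0.935) and *CLIP-190* (0.930). *dia* had no gene above 0.809 (*CenB1A*), and *pbl* none above 0.593 (*CG45072*). These correlations over all 62 cysts include the differences between the 4 stages and carry no test. Within single stages, on deviations from the means, *scra* and *pav* had r of 0.79, 0.88, 0.96 and 0.94 at SG, pSC, rST and eST. In the same order, *pav* and *tum* had 0.91, 0.90, 0.15 and 0.92, and *scra* and *tum* had 0.75, 0.77, 0.23 and 0.91. Within rST cysts *tum* was thus only weakly related to *scra* and *pav*.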

How the data were processed

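The *D. melanogaster* tables were used: 62 cyst and 9 testis libraries. The authors trimmed reads with Trimmomatic 0.36, mapped them with HISAT2 2.2.0 and counted them per gene with HTSeq 0.6.0, and they deposited raw counts and, per library, FPKM values from StringTie 2.1.4. The authors removed 1 outlying cyst. Counting ignored strand, and no member shares exonic bases with another gene. Genes with more than 5 TMM-normalized counts on average in at least 1 group were tested on counts with edgeR 4.0.16 (limma 3.58.1, R 4.3.3), two-sided, with Benjamini-Hochberg adjustment over all genes, 1 fit per stage, per line and for testes, and 1 over all cysts for the interaction. Tests were tested on simulated data. DESeq2 1.42.0 and limma on log2(FPKM + 1) or log2(FPKM + 0.1) were alternatives. Members and lists were chosen with earlier results of these data known. The genes named are all members, up to 4 called partners of the largest change per comparison, and the 2 genes most like each member. Symbols came from an annotation table for 17547 of 17612 identifiers; 36 of 37 listed partners were found, and zip was not matched. *D. simulans* libraries were not used here. Tables used Python 3.11.15, pandas 2.3.3 and numpy 2.4.6, and figures matplotlib 3.10.9.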

Additional observations from a re-analysis of the deposited data

Results flagged for a closer look

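In 10 of 84 groups of 4 to 6 cysts, 1 cyst stood apart from the rest of its group in FPKM by Dixon's test at the 95% level. For normal and independent values chance alone gives about 1 in 20 groups. These groups are raw FPKM of 7 genes, some of them correlated, in the same cysts, so no excess can be read from the count. Low values were *pbl* in WT SG replicate 1 (3.77 FPKM). High values were *scra* and *pav* in the same WT rST cyst, replicate 1 (3.54 and 4.44 FPKM), *pav* in KO rST replicate 5 (1.23 FPKM), *pbl* in WT eST replicate 3 (24.7 FPKM), *dia* in Replacement SG replicate 6 (5.99 FPKM) and in Replacement pSC replicate 3 (2.89 FPKM), *pnut* in KO pSC replicate 3 (2.16 FPKM), and *fwd* in Replacement SG replicate 4 (18.0 FPKM) and in KO eST replicate 3 (14.0 FPKM), 1 of the cysts low in spermatid markers. The course over stages differed between the lines for *tum* (edgeR F test over 62 cysts, adjusted p = 0.000491) and *scra* (adjusted p = 0.0241).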

How the results depend on the processing

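Counts of called members stayed within 1.5 times the reported count in 179 cases and moved further in 28, and no called member reversed. The number called for KO over WT at eST was 4 with DESeq2, 1 with the replicate block, and 0 with only the 2 groups, with limma on either pseudocount and without the 2 cysts low in spermatid markers. For Replacement over WT at eST it was 3 with DESeq2 and 0 with limma and without those cysts. For eST over rST in KO it was 3 with only the 2 groups, 2 and 3 with limma on log2(FPKM + 1) and log2(FPKM + 0.1), and 3 without the cyst. DESeq2 gave 2 for Replacement over KO at SG, 1 for KO over WT at pSC, 5 for pSC over SG in Replacement and 4 for eST over rST in WT. Only the 2 groups gave 1 for KO over WT at pSC and 2 for pSC over SG in WT, limma on log2(FPKM + 1) gave 2 for that step and 1 for Replacement over KO at rST, and limma on log2(FPKM + 0.1) gave 1 for Replacement over KO at rST and 4 for eST over rST in WT. An FDR under 0.05 alone gave 2, 2 and 4 in testes for KO over WT, Replacement over KO and Replacement over WT. The causes were not tested. Leaving out each library in turn gave 0 to 3 for KO over WT and 0 to 2 for Replacement over WT at eST, 0 to 1 for KO over WT at pSC, 3 to 6, 3 to 5 and 2 to 4 for eST over rST in KO, Replacement and WT, 1 to 4, 2 to 4 and 1 to 2 for pSC over SG, 2 to 6 for rST over pSC in Replacement and 1 to 3 in WT, and 1 to 2 for the interaction; the other counts did not move. Same-numbered libraries correlated over r = 0.1 in 0 of 9 testis pairs. Among cysts they did so in 8 of 15 eST pairs, 7 of 15 pSC pairs, 6 of 15 rST pairs and 3 of 11 SG pairs, not in every pair, so the replicate numbers were not taken as a pairing. With the replicate block, KO over WT at rST had 0 called (*tum*, -1.61, edgeR adjusted p = 0.0733) and 10 member calls changed, among them *pbl* for KO over WT (adjusted p = 0.0965) and *scra* for Replacement over WT (adjusted p = 0.0616) at eST, both lost in edgeR. Replicates are few, and spread between cysts limits what could be called outside testes.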
